A study of Mus musculus with 55 samples.

Results

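The transcriptome of granulocyte-macrophage progenitors (GMPs) was compared between Tet2-/- and wild-type (WT) mice. All 4 GMP libraries of each genotype entered the comparison, 8 of the 55 libraries of the series, and 16563 of the 55421 annotated genes had enough reads to be tested. The series measured RNA of sorted bone marrow stem and progenitor cells in order to ask what the loss of Tet2 does to the early blood hierarchy, with attention to innate immune genes. The GMPs were gated as Lin- cKit+ Sca1- CD34+ CD16/32high cells, and full-length cDNA was amplified from 200 cells by the sample labels or about 300 by the study's methods. Tet2-/- mice carried floxed Tet2 alleles and Mx1-Cre on a C57BL/6 background. Because the Mx1 promoter answers to interferon, Cre was switched on with 5 doses of poly(I:C), a double-stranded RNA mimic, from 4 weeks of age, and the mice were kept for 16 weeks before analysis. The sources used here do not state whether the WT mice also received poly(I:C). The libraries of each genotype are numbered 2 to 5. The study describes replicates as separate mice while the labels give only these numbers, so that p-values measure the spread between these libraries.

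GMPs are the committed progenitors from which neutrophils and monocytes arise. They are known for very high expression of the enzymes of primary granules, such as myeloperoxidase and neutrophil elastase, and they depend on PU.1 and C/EBPα. TET2 oxidizes 5-methylcytosine and thereby promotes DNA demethylation. It is among the most frequently mutated genes in clonal hematopoiesis and myeloid neoplasia, and its loss in mice expands the stem cell pool and favours myelomonocytic differentiation. Type I interferon signals through the receptors IFNAR1 and IFNAR2 to transcription factors that bind the interferon-stimulated response element in front of their target genes.

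The GMP libraries held 57900451 to 99596506 counts, and 19675 to 20964 genes had at least 1 count. Mitochondrially encoded genes held 4.74 to 5.09% of the counts in Tet2-/- libraries and 3.64 to 4.60% in WT libraries, so that every Tet2-/- library lay above every WT library in this share. With these genes left out, 51 genes were called higher and 673 lower, 51 and 672 of them shared with the calls given below. Pearson correlations of log2 values were 0.976 to 0.980 among Tet2-/- libraries, 0.973 to 0.982 among WT libraries and 0.951 to 0.968 between genotypes. The first principal component held 41.2% of the variance and separated the genotypes. Levels are CPM, counts scaled to library size with edgeR's TMM factors, and are given in the order of libraries 2, 3, 4 and 5. Since CPM is not divided by gene length, levels were compared between genotypes and not between genes.

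The targeted gene was examined first. Tet2 (chr3:133463679-133545139, mm10) was measured at 64.6, 52.99, 42.5 and 43.9 CPM in the Tet2-/- libraries and 41.7, 35.8, 42.9 and 44.2 CPM in the WT libraries. The groups overlapped and the difference did not pass the test (log2 fold change 0.31 with SE 0.16, adjusted p = 0.371 by edgeR's quasi-likelihood test with Benjamini-Hochberg adjustment, which gives all adjusted p-values below). The counts are sums over the whole gene, so the removal of single exons may not show in them. Reads of single exons were not examined, and the genotype rests on the labels.

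Of 7 genes listed for the study's sorting gates 1 passed the test between genotypes, where 6.56% of all genes tested passed. Of 22 GMP markers 1 was called, where 4.37% were. Kit, the receptor of stem cell factor used in the gate, was measured at 347, 352, 321 and 343 CPM in the Tet2-/- libraries and 252, 279, 226 and 243 CPM in the WT libraries, so that every Tet2-/- library lay above every WT library. It rose 1.36-fold (log2 fold change 0.45 with SE 0.10, adjusted p = 0.0182). Cd34 had 659 ± 60.3 against 576 ± 75.5 CPM (SD, n = 4 in each group here and below) and did not pass (log2 fold change 0.19 with SE 0.12, adjusted p = 0.454). Fcgr3 and Fcgr2b, which encode the CD16 and CD32 antigens, had log2 fold changes of -0.33 and -0.06 (adjusted p = 0.52 and 0.864). Ly6a (Sca1), against which the gate selects, was low with means of 2.08 against 1.82 CPM. Il7r (CD127), used in the gate of common lymphoid progenitors and not in that of GMPs, had 0.187 against 0.307 CPM. Myeloperoxidase, encoded by Mpo, was at 24844 against 22851 CPM and the elastase gene Elane at 9449 against 9669 CPM, with overlapping groups and adjusted p-values of 0.592 and 0.93. Over 22 GMP genes the mean log2(CPM + 1) per library was 8.74, 9.08, 8.76 and 9.03 in the Tet2-/- libraries and 8.78, 8.83, 8.87 and 9.18 in the WT libraries. The groups overlapped. One of these genes, Csf2ra, was called lower and is described with the receptors.

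At an adjusted p below 0.05 and a change of at least 2-fold, 723 genes were called (4.37% of those tested). Of these, 672 were lower in Tet2-/- GMPs (4.06%) and 51 were higher (0.308%). The groups did not overlap for 653 of the genes called lower and 50 of those called higher, where 8.1% of all genes tested had every Tet2-/- library below every WT library and 4.93% had every one above. The median log2 fold change was -1.84 among the called lower, 295 of which changed at least 4-fold, and 1.48 among the called higher. DESeq2 called 179 genes higher, and 1 fit of all 46 libraries of both genotypes called 5 higher and 214 lower, 4 and 211 of them shared. With single libraries left out, 27 to 36 of the 51 and 550 to 618 of the 672 were still called. Without the fold threshold 1086 genes passed (6.56%), 909 of them lower (5.49%) and 177 higher (1.07%), and at an unadjusted p below 0.05 there were 1651 lower (9.97%) and 1217 higher (7.35%). The median over all genes tested was 0.03, and 52.9% had a value above 0.

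**Figure D1:**
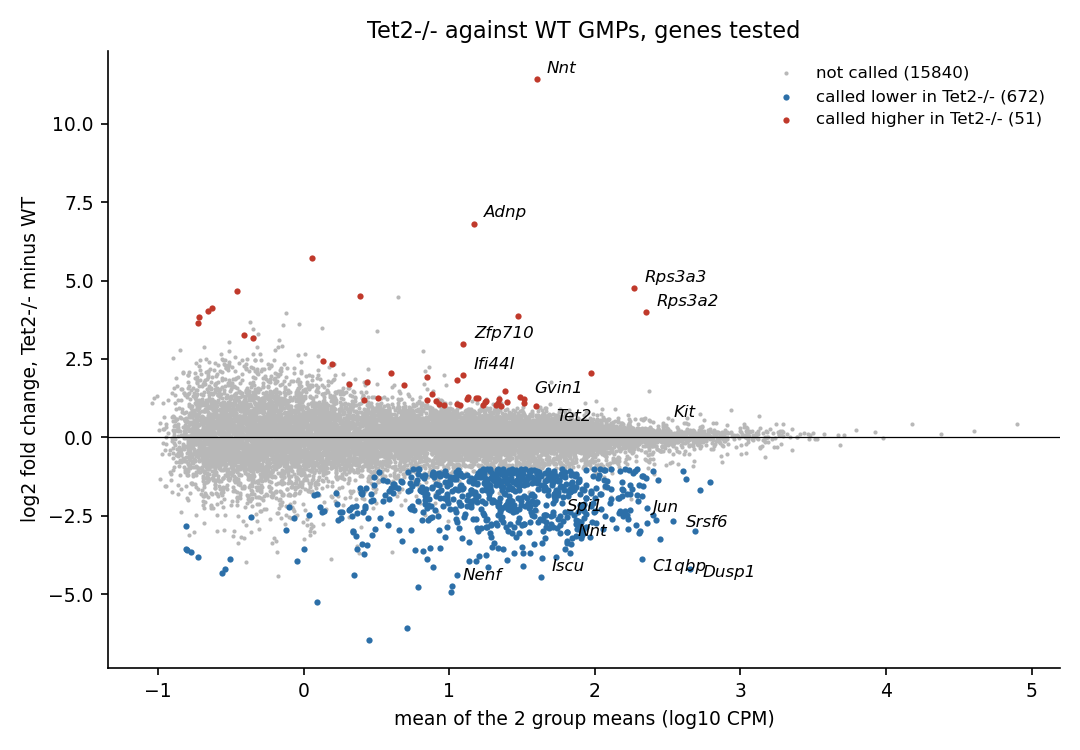
Log2 fold change of each gene tested (Tet2-/- minus WT, vertical axis) against the mean of the 2 group means (log10 CPM, horizontal axis). Grey points are genes not called, blue points the 672 called lower and red points the 51 called higher; most of the called points lie below 0.

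Interferon-stimulated genes (ISGs) were mostly higher in Tet2-/- GMPs, by small amounts. Of 83 listed ISGs, 78 were tested and 73 had a higher mean in Tet2-/- cells. The median log2 fold change was 0.51, against 0.03 over all genes tested, and was 0.51 over the 76 genes other than Ifi44 and Ifi44l. Groups did not overlap, with Tet2-/- above WT, for 22 of the 78 (4.93% of all genes tested). At an adjusted p below 0.05, 7 rose and 1 fell, where 1.07% of all genes tested rose and 5.49% fell. The mean log2(CPM + 1) of the list was 4.37, 4.59, 4.34 and 4.32 in the Tet2-/- libraries and 4.05, 3.97, 3.83 and 4.12 in the WT libraries, with no overlap (4.41 ± 0.13 against 3.99 ± 0.12, SD). The summed level of the ISGs was 8229 to 11066 CPM in the Tet2-/- and 7516 to 9114 CPM in the WT libraries, and these ranges overlapped.

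The only 2 ISGs called at 2-fold were Ifi44l and Ifi44, neighbours on chromosome 3 that encode interferon-induced proteins with antiviral activity. They were 2 of 78 tested, where 0.308% of all genes tested were called higher. Ifi44l (chr3:151758737-151762892) was measured at 16.4, 35.2, 14.6 and 13.7 CPM in the Tet2-/- libraries and 3.498, 2.77, 8.11 and 5.79 CPM in the WT libraries. Library 3 of the Tet2-/- group stood highest, and the other 3 still lay above all WT libraries (log2 fold change 1.98 with SE 0.41, adjusted p = 0.0124). Ifi44 (chr3:151730922-151749960) was at 17.9, 26.1, 14.99 and 11.4 CPM in the Tet2-/- libraries and 7.17, 1.85, 2.88 and 7.72 CPM in the WT libraries (log2 fold change 1.84 with SE 0.45, adjusted p = 0.033). Its call was lost without Tet2-/- library 2, 3 or 4 or WT library 3 or 4 (log2 fold changes of 1.55 to 1.91). Below 2-fold, the peptide-loading chaperone gene Tapbp rose (adjusted p = 0.00989), from 94.9 ± 26.6 to 178 ± 6.13 CPM. Lgals3bp, Ifi27, Slfn8 and the immunoproteasome subunit gene Psmb10 rose by 0.90, 0.63, 0.95 and 0.43 on the log2 scale (adjusted p = 0.0156, 0.0242, 0.0309 and 0.043). H2-T23, a non-classical MHC class I gene, was the 1 member that fell, by 0.69 (adjusted p = 0.0409). Genes often used to read interferon responses, chosen here after their values were seen, were low and variable. Isg15, a ubiquitin-like modifier, had means of 0.841 against 0.413 CPM, Ifit1 0.986 against 0.277 CPM and Irf7, a transcription factor that amplifies the response, 2.81 against 1.76 CPM (adjusted p = 0.615, 0.676 and 0.588). Oasl2 and Usp18 had log2 fold changes of 1.41 and 1.31, and neither passed (adjusted p = 0.136 and 0.205).

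Interferon-induced GTPases, which act on membranes of intracellular pathogens, had a higher mean for all 14 of the 14 tested genes (of 20 listed), with a median of 0.43. Of all genes tested 52.9% had a higher mean. Gvin1, a very large member of the family, was called higher at 44.7, 56.2, 35.6 and 44.6 CPM in the Tet2-/- libraries and 23.1, 13.2, 23.2 and 18.7 CPM in the WT libraries (log2 fold change 1.21 with SE 0.21, adjusted p = 0.00467). All Tet2-/- libraries lay above all WT libraries for Gvin1. Tgtp2 and Tgtp1, adjacent genes of similar sequence, rose by 0.94 and 0.90 on the log2 scale (adjusted p = 0.0196 and 0.0485), and reads could be split between them by the counting. The mean level of the list per library overlapped between groups (4.01 ± 0.17 against 3.52 ± 0.26), as WT library 5 lay above Tet2-/- libraries 2 and 4.

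The sequences before the start sites of these genes were searched for the interferon-stimulated response element core (TTTC, any 2 bases, TTTC) and for the STAT-type motif TTNCNNNAA, on both strands, in RefSeq promoters (GRCm38.p6, 250 bases before to 50 after the start). The first motif was in 29 of 62 ISG promoters (46.8%) and 10 of 11 GTPase promoters (90.9%), against 400 of 10385 promoters of genes tested (3.85%) and 3.99% of all 27025. The second was in 61.3% and 81.8% of them, against 33.9% and 40.0%. Among genes called higher, 1 of 29 promoters held the first motif, and among those called lower 9 of 496. Up to 250 bases before the annotated gene are shown for the pair of called ISGs, whose windows held only the STAT-type motif (capitals), and for Tgtp2, whose capitals mark the interferon response element core on the opposite strand. A match describes these letters and is not evidence of binding. The 2 motifs can overlap.
Ifi44, chr3:151749961-151750160, minus strand: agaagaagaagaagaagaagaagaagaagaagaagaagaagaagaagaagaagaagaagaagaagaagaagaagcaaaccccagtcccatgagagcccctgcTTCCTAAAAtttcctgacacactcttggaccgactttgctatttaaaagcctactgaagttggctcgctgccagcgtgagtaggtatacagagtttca
Ifi44l, chr3:151762893-151763141, minus strand: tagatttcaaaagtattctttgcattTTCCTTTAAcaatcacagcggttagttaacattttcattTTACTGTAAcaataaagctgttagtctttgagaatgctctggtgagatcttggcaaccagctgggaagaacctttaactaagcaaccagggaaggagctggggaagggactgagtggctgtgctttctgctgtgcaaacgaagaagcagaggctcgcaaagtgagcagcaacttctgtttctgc
Tgtp2, chr11:49064213-49064462, minus strand: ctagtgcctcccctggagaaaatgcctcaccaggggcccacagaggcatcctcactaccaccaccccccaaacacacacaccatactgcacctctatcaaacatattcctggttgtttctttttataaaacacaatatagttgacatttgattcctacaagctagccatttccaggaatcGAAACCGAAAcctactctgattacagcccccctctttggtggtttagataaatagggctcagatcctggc

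Of the cytosolic DNA sensing pathway no gene was called. STING, encoded by Tmem173, was at 72.3, 73.8, 86.7 and 68.6 CPM in the Tet2-/- libraries and 84.5, 48.4, 57.2 and 86.8 CPM in the WT libraries, and the groups overlapped (log2 fold change 0.12 with SE 0.19, adjusted p = 0.817). Cgas, the sensor upstream of STING, was at 14.1, 9.45, 14.3 and 11.2 CPM in the Tet2-/- libraries and 20.7, 20.7, 22.7 and 15.2 CPM in the WT libraries. Every Tet2-/- library was below every WT library for Cgas, yet the adjusted p was 0.0782 (log2 fold change -0.69 with SE 0.20). The kinase gene Tbk1, the transcription factor gene Irf3 and the RNA-sensing adaptor gene Mavs had log2 fold changes of 0.10, 0.23 and 0.14 (adjusted p = 0.819, 0.429 and 0.758). Of 28 tested nucleic acid sensing genes 20 had a higher mean, with a median of 0.13, and none was called. Of all genes tested 52.9% had a higher mean and 4.37% were called. The only one past the adjusted threshold was Traf6, a ubiquitin ligase shared with Toll-like receptor signalling, which fell by 0.94 (adjusted p = 0.0196). Ifnb1, the interferon-beta gene, was not tested because it had counts in WT library 2 alone. Il6 was low at 0.223, 0, 0.975 and 0.056000 CPM in the Tet2-/- libraries and 0.2798, 1.64, 0.97000 and 0.347 CPM in the WT libraries (adjusted p = 0.647).

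**Figure D2:**
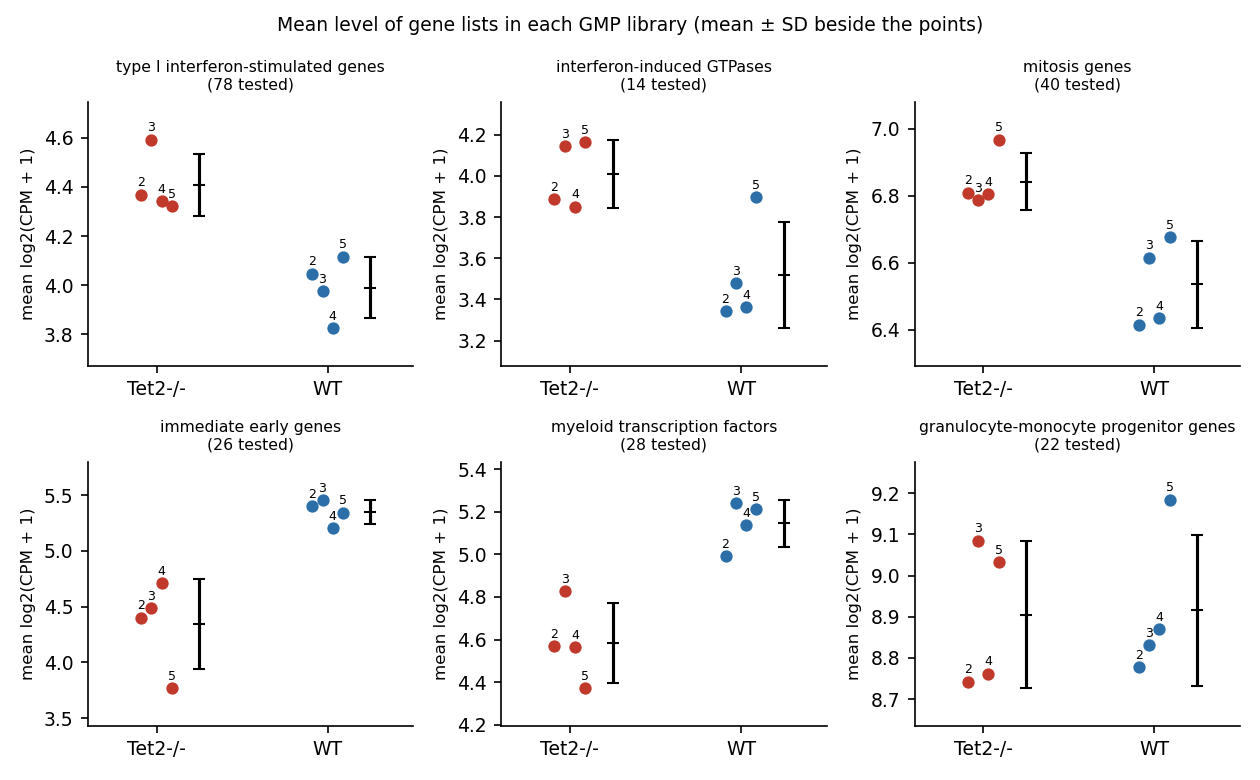
Mean log2(CPM + 1) of 6 gene lists in each GMP library (vertical axis), by genotype, with library numbers and with the mean and SD of 4 libraries beside the points. The Tet2-/- libraries lie above the WT libraries for interferon-stimulated and mitosis genes and below them for immediate early genes and myeloid transcription factors, and the groups overlap for the GTPases and the GMP genes. The axes do not start at 0.

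Mitosis genes were also slightly higher. Of 40 tested, 37 had a higher mean in Tet2-/- GMPs and the median was 0.33. At an adjusted p below 0.05, 8 rose and 1 fell, where 1.07% and 5.49% of all genes tested did. Mki67, which encodes the proliferation antigen Ki-67, was measured at 206, 239, 215 and 186 CPM in the Tet2-/- libraries and 109.9, 118, 141 and 143 CPM in the WT libraries, and rose by 0.72 on the log2 scale (adjusted p = 0.00479). Top2a, the topoisomerase that untangles sister chromatids, had 488 ± 13.9 against 354 ± 17.8 CPM (log2 fold change 0.46, adjusted p = 0.00716). The centromere protein genes Cenpa and Cenpf rose by 0.65 and 0.81. Cdc25b, a phosphatase that activates the mitotic kinase, was the 1 listed gene called higher, at 30.4 ± 3.04 against 15.1 ± 4.22 CPM, but not without Tet2-/- library 3 or 5 or WT library 3 or 4 (log2 fold changes of 0.84 to 0.98). Groups did not overlap for 19 of the 40 genes with Tet2-/- above, where 4.93% of all genes tested were of this kind. The mean level of the list was 6.81, 6.79, 6.81 and 6.97 in the Tet2-/- libraries and 6.42, 6.62, 6.44 and 6.68 in the WT libraries, with no overlap. Outside the list, the spindle pole gene Aspm was called higher at 44.3 ± 7.15 against 20.7 ± 7.77 CPM (log2 fold change 1.1 with SE 0.26, adjusted p = 0.0297), but not without Tet2-/- library 3, 4 or 5 or WT library 2, 3 or 4 (log2 fold changes of 0.90 to 1.15).

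Single cyclin and replication genes were called lower, while the list of replication genes and the list of cyclins, CDKs and their inhibitors had medians near 0. Ccne1, the cyclin E gene that drives S-phase entry, was at 4.13, 5.87, 5.22 and 5.85 CPM in the Tet2-/- libraries and 35.3, 26.6, 26.3 and 30.2 CPM in the WT libraries and fell 5.62-fold (log2 fold change -2.49 with SE 0.19, adjusted p = 1.43e-05). Ccna2, the cyclin of S phase and G2, was at 58.3, 66.2, 61.2 and 53.4 CPM in the Tet2-/- libraries and 235, 279, 179 and 217 CPM in the WT libraries (log2 fold change -1.93 with SE 0.15, adjusted p = 1.35e-05), the 1 member of the mitosis list that fell. For both cyclins all Tet2-/- libraries lay below all WT libraries. Of 46 replication genes 18 had a higher mean, the median was -0.03, and 3 were called lower, against 4.06% of all genes tested, while the polymerase gene Pole rose by 0.56 (adjusted p = 0.0315). Besides Ccne1 these were Cdt1, which licenses origins (35.5 ± 13.8 against 83.2 ± 31.4 CPM), and Chaf1a, a histone chaperone subunit (26.01 ± 6.26 against 56.1 ± 17.7 CPM). The groups of both overlapped. Cdt1 was not called without Tet2-/- library 2, 3 or 5 or WT library 2, 3 or 5 (log2 fold changes of -1.27 to -0.95), nor Chaf1a without Tet2-/- library 2, 4 or 5 or WT library 2 or 3 (log2 fold changes of -1.14 to -0.96). Among 21 cyclins, CDKs and their inhibitors, Ccne1 was the 1 called gene, about the share of all genes, and the median was -0.01.

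Among the named genes called higher, 6 that encode surface proteins are given together here, a grouping made after the calls were seen and not tested. Itga2b, the megakaryocyte integrin CD41, was at 26.04, 23.9, 51.8 and 33.999 CPM in the Tet2-/- libraries and 18.4, 13.8, 14.02 and 16.2 CPM in the WT libraries (log2 fold change 1.12 with SE 0.24, adjusted p = 0.0179). Selp, the P-selectin of platelets and endothelium, was at 17.8, 45.02, 30.98 and 29.9 CPM in the Tet2-/- libraries and 14.8, 15.6, 10.1 and 11.95 CPM in the WT libraries (log2 fold change 1.23 with SE 0.27, adjusted p = 0.0169). The integrin gene Itga1 had 23.05 ± 1.75 against 11.2 ± 2.61 CPM (log2 fold change 1.04 with SE 0.20, adjusted p = 0.00943). Pdgfrb, a PDGF receptor, had 22.2 ± 3.26 against 9.36 ± 2.98 CPM (log2 fold change 1.24 with SE 0.25, adjusted p = 0.0102). Tie1, an endothelial receptor tyrosine kinase also present in stem cells, had 29.3 ± 6.35 against 13.8 ± 2.31 CPM and the glypican gene Gpc3 27.96 ± 8.03 against 13.6 ± 2.88 CPM (log2 fold changes 1.08 and 1.03, adjusted p = 0.00777 and 0.0213). For each of these 6 genes the groups did not overlap, which the rule that named them required. Only Pdgfrb was called with every single library left out. Selp was not called without Tet2-/- library 3 or WT library 4 or 5 (log2 fold changes of 0.96 to 1.19), Itga2b without Tet2-/- library 4 or WT library 3 or 4 (log2 fold changes of 0.84 to 1.07), Itga1 without Tet2-/- library 2 or WT library 5 (log2 fold changes of 0.88 to 0.997), Tie1 without Tet2-/- library 3 or WT library 4 (log2 fold changes of 0.94 to 0.97), and Gpc3 without Tet2-/- library 2 or 5 or WT library 2, 3 or 5 (log2 fold changes of 0.83 to 1.08).

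Of the 20 megakaryocyte genes 17 were tested, 11 had a higher mean, 2 were called higher (Selp and Itga2b), against 0.308% of all genes tested, and the median was 0.35. Its summed level was 273 to 552 CPM in the Tet2-/- and 297 to 441 CPM in the WT libraries, which overlapped. Among 28 integrin and adhesion genes, 18 had a higher mean, Itga1 and Itga2b were called higher, against 0.308% of all genes tested, and the median was 0.18. Itgb7, a beta chain of gut-homing integrins, was the 1 of 28 called lower, against 4.06% of all genes tested, at 2.08 ± 0.864 against 6.34 ± 2.48 CPM, but not without Tet2-/- library 3, 4 or 5 or WT library 2, 3 or 5 (log2 fold changes of -1.61 to -1.37). Itga4, a subunit of VLA-4, rose by 0.74 while Cd47 and the homing receptor gene Cxcr4 fell by 0.53 and 0.62 (adjusted p = 0.00393, 0.0096 and 0.0235).

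Other named genes called higher follow. Zfp710, a zinc finger gene, was at 23.4, 28.2, 26.6 and 10.8 CPM in the Tet2-/- libraries and 5.002, 1.64, 1.97 and 2.56 CPM in the WT libraries (log2 fold change 2.98 with SE 0.41, adjusted p = 0.000878). Cipc, an inhibitor of the circadian CLOCK protein, was at 45.3, 15.4, 41.8 and 40.3 CPM in the Tet2-/- libraries and 10.6, 15.03, 12.2 and 13.3 CPM in the WT libraries, where Tet2-/- library 3 lay just above the highest WT library and the other 3 were well above (log2 fold change 1.48 with SE 0.30, adjusted p = 0.011). Slc36a1, a lysosomal amino acid transporter, had 21.6 ± 6.72 against 8.96 ± 2.61 CPM, and Ago1, an Argonaute protein of small RNA silencing, had 24.6 ± 6.17 against 11.04 ± 3.93 CPM (adjusted p = 0.0167 and 0.0246). Slc36a1 was not called without Tet2-/- library 3 or WT library 3 or 4 (log2 fold changes of 1.01 to 1.26), nor Ago1 without Tet2-/- library 3 or 4 or WT library 3, 4 or 5 (log2 fold changes of 0.94 to 1.17). Jarid2, a cofactor of the polycomb complex PRC2, had 52.4 ± 4.33 against 26.2 ± 8.81 CPM, and was not called without Tet2-/- library 2, 3 or 5 or WT library 2 or 4 (log2 fold changes of 0.84 to 0.998). Among 38 polycomb and chromatin regulator genes 28 had a higher mean (median 0.13). Against 0.308% of all genes tested called higher and 4.06% lower, 1 gene was called in each direction, Jarid2 higher and Pcgf6, a PRC1 subunit, called lower (6.46 ± 3.36 against 24.3 ± 10.4 CPM). Pcgf6 was not called without Tet2-/- library 2 or 4 or WT library 2, 3 or 4 (log2 fold changes of -1.97 to -1.61). Asxl1 rose by 0.68 (adjusted p = 0.0393).

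**Figure D3:**
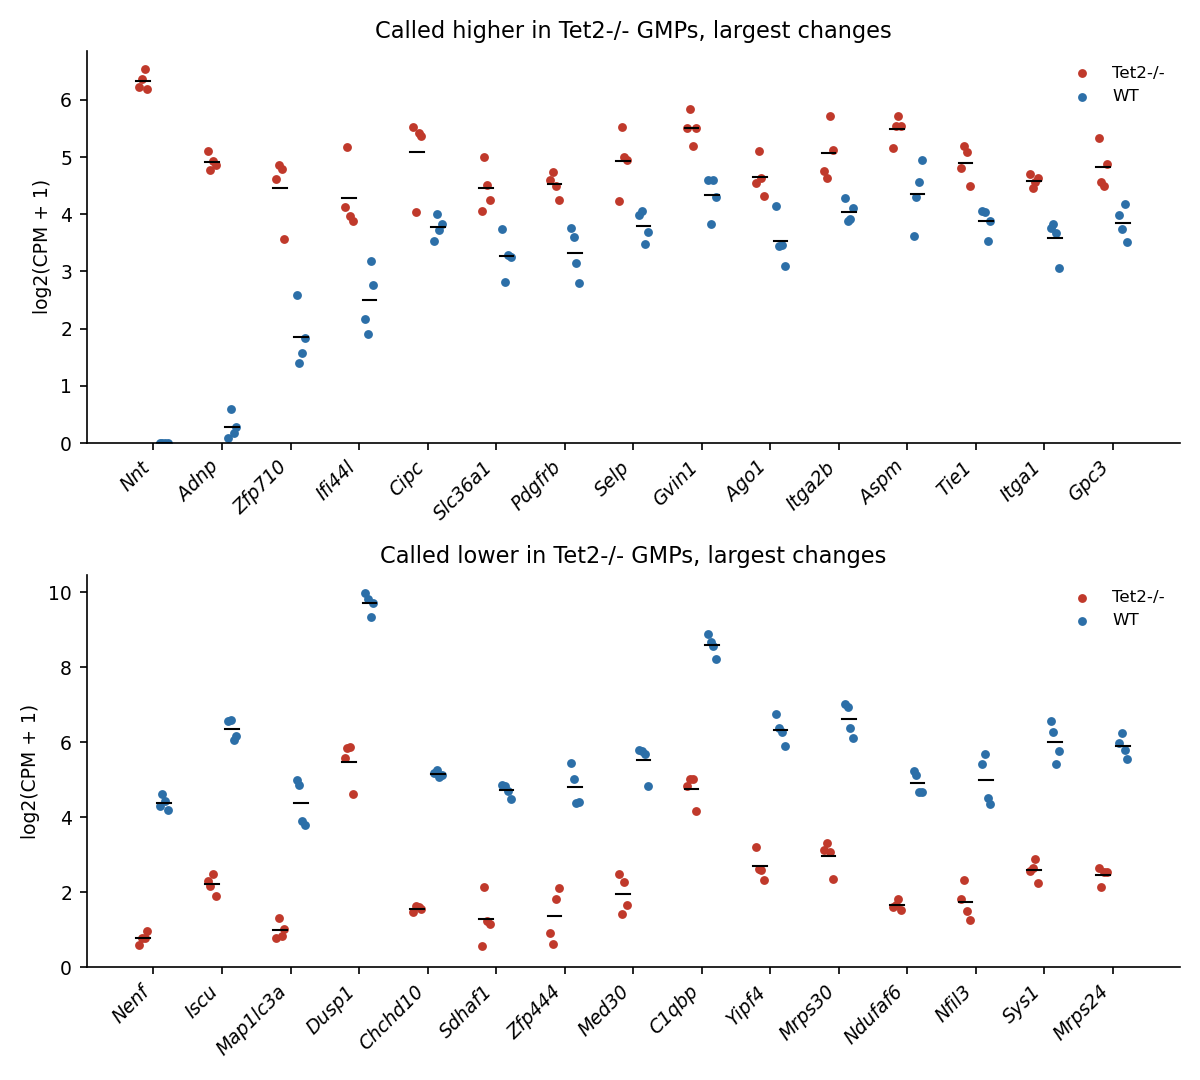
Log2(CPM + 1) of each GMP library for the 15 named genes called higher (upper panel) and the 15 called lower (lower panel) with the largest changes, Tet2-/- in red and WT in blue, with the group mean as a bar. No groups overlap for these genes, since the rule that named them required this. Nnt and Adnp are at or near 0 in all WT libraries.

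Some genes with large changes have reads that can be assigned to more than 1 annotation. Nnt, the nicotinamide nucleotide transhydrogenase of the inner mitochondrial membrane, is annotated as 2 overlapping genes on the same strand of chromosome 13. The first (ENSMUSG00000116207, chr13:119335528-119408952) was at 73.6, 81.6, 91.5 and 71.6 CPM in the Tet2-/- libraries and 0, 0, 0 and 0 CPM in the WT libraries, at least 1735-fold higher against a floor of 3 counts per library. The second (ENSMUSG00000025453, chr13:119335448-119408997) was at 7.37, 12.3, 15.4 and 10.8 CPM in the Tet2-/- libraries and 106, 143, 101 and 121 CPM in the WT libraries, 10.3-fold lower. The sum of both was 91.0 ± 12.1 against 118 ± 18.7 CPM. The substrain C57BL/6J is known to carry a deletion within Nnt. The labels give no substrain, and substrain and genotype cannot be told apart here. In other populations the first gene was at 0 in WT CMPs, MEPs and LT-HSCs and at 36.96, 23.04 and 8.16 CPM in their Tet2-/- counterparts. In ST-HSCs it was at 0 in both genotypes, and in CLPs it was at 27.5 against 14.8 CPM.

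A further 3 genes called higher are near-identical processed copies of Rps3a1, a gene of the small ribosomal subunit. Rps3a3 was at 459, 317, 318 and 332 CPM in the Tet2-/- libraries and 8.99, 9.82, 26.9 and 7.296 CPM in the WT libraries, Rps3a2 at 422 ± 88.9 against 26.6 ± 21.2 CPM and Gm5586 at 55.7 ± 15.4 against 3.74 ± 3.52 CPM (log2 fold changes 4.75, 3.99 and 3.88). Rps3a1 itself had 1174 ± 236 against 1792 ± 414 CPM and did not pass (log2 fold change -0.61 with SE 0.17, adjusted p = 0.0651). Summed over the 4 genes, the level was 2008 ± 405 against 1835 ± 447 CPM. All 3 copies were also higher in Tet2-/- than in WT cells of the other 5 populations. Rps3a3, for example, was at 795 against 22.3 CPM in LT-HSCs. Adnp, a chromatin-associated homeobox gene (chr2:168180986-168207112), was at 33.3, 26.5, 29.4 and 27.9 CPM in the Tet2-/- libraries and 0.070000, 0.505, 0.127 and 0.213 CPM in the WT libraries (log2 fold change 6.81 with SE 0.49, adjusted p = 7.51e-06). It overlaps another gene on the same strand, and its level across populations did not follow genotype, with 0 against 0.115 CPM in CMPs and 31.8 against 18.8 CPM in MEPs.

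Among the genes called lower were several myeloid transcription factors. Spi1, which encodes PU.1, the master regulator of granulocytic and monocytic commitment (chr2:91082390-91115756), was measured at 34.8, 37.2, 38.6 and 37.8 CPM in the Tet2-/- libraries and 263, 192, 216 and 234 CPM in the WT libraries. The groups were far apart, and the gene fell 6.102-fold (log2 fold change -2.61 with SE 0.12, adjusted p = 1.19e-06). Nfil3, a basic leucine zipper factor of cytokine responses, was at 2.56, 4.03, 1.86 and 1.39 CPM in the Tet2-/- libraries and 41.7, 50.7, 21.7 and 19.4 CPM in the WT libraries (log2 fold change -3.75 with SE 0.42, adjusted p = 0.000183). Of 28 tested factors 8 had a higher mean, 5 were called lower (Spi1, Jun, Nfil3, Klf6 and Klf2), against 4.06% of all genes tested, and the median was -0.21. Runx1, a core regulator of definitive hematopoiesis, fell by 0.81 on the log2 scale (adjusted p = 0.0131). Cebpa and Cebpe, factors of granulocyte commitment and maturation, had log2 fold changes of 0.41 and -0.14, and neither passed (adjusted p = 0.303 and 0.823). The mean level of the list was 4.57, 4.83, 4.57 and 4.37 in the Tet2-/- libraries and 4.99, 5.24, 5.14 and 5.21 in the WT libraries, with every Tet2-/- library below every WT library. The mean over all genes tested was also lower in every Tet2-/- library, by far less (3.52 ± 0.01 against 3.57 ± 0.01).

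Immediate early genes, which respond within minutes to growth factors, stress or handling, were lower as a list. All but 1 of the 26 tested had a lower mean, where 52.9% of all genes tested had a higher one. Of the 26 genes 7 were called lower, against 4.06% of all genes, and the median was -0.77. Dusp1, a phosphatase that inactivates MAP kinases (chr17:26505590-26562128), was measured at 46.9, 56.9, 58.2 and 23.8 CPM in the Tet2-/- libraries and 1014, 911, 648 and 833 CPM in the WT libraries (log2 fold change -4.2 with SE 0.28, adjusted p = 6.43e-06). Jun, a subunit of AP-1, was at 59.2, 56.8, 80.6 and 44.3 CPM in the Tet2-/- libraries and 308, 299.9, 396 and 579 CPM in the WT libraries (log2 fold change -2.72 with SE 0.25, adjusted p = 3.89e-05). For both genes the groups were far apart. The Krüppel-like factor genes Klf6 and Klf2 had 153 ± 33.2 against 392.5 ± 81.5 CPM and 5.35 ± 2.95 against 28.6 ± 12.9 CPM (log2 fold changes -1.35 and -2.41). The stress-induced factor Atf3 had 7.17 ± 4.11 against 37.3 ± 10.9 CPM (adjusted p = 0.00858). Csrnp1 and Dusp2 were called lower as well. Fos, at 876, 703, 725 and 377 CPM in the Tet2-/- libraries and 798, 853, 1030.1 and 1154 CPM in the WT libraries, overlapped and did not pass (adjusted p = 0.255), and neither did Egr1 (log2 fold change -1.09, adjusted p = 0.3). The mean level of the list was 4.4, 4.49, 4.71 and 3.77 in the Tet2-/- libraries and 5.4, 5.46, 5.2 and 5.34 in the WT libraries. Tet2-/- library 5 was the lowest, and the other 3 were still below all WT libraries.

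Inhibitors of NF-kB signalling were also among the genes called lower, a grouping made after the calls were seen and not tested. Tnfaip3, the ubiquitin-editing enzyme A20 that limits NF-kB activation, was at 13.2, 12.3, 18.996 and 6.65 CPM in the Tet2-/- libraries and 118, 110.00, 58.4 and 65.4 CPM in the WT libraries (log2 fold change -2.78 with SE 0.33, adjusted p = 0.000315). Nfkbiz and Nfkbid, atypical inhibitor-of-NF-kB family members, had 17.02 ± 6.39 against 75.7 ± 29.4 CPM and 20.7 ± 4.18 against 48.9 ± 14.8 CPM. Nfkbia, the gene of the inhibitor IκBα and itself an NF-kB target, had 115 ± 41.01 against 253 ± 48.1 CPM (log2 fold change -1.14, adjusted p = 0.0109). Nfkbia was not called without Tet2-/- library 5 (log2 fold change of -0.999). These were the 4 called genes among 23 of the pathway, against 4.06% of all genes tested, and 9 of the 23 had a higher mean (median -0.18). The mean level of the pathway was 4.15 ± 0.14 against 4.51 ± 0.13, without overlap, beside 3.52 ± 0.01 against 3.57 ± 0.01 over all genes tested. Of 21 tested cytokine and chemokine genes, 7 had a higher mean and the median was -0.53. The macrophage inflammatory protein gene Ccl3 was called lower at 65.1 ± 11.1 against 148 ± 16.4 CPM (log2 fold change -1.19 with SE 0.15, adjusted p = 0.000371), and Ccl4 fell by 0.98 (adjusted p = 0.00224). The neutrophil chemoattractant gene Cxcl2 was called lower at 7.89 ± 4.75 against 25.5 ± 8.38 CPM, but not without Tet2-/- library 2 or 3 or WT library 2 or 4 (log2 fold changes of -1.71 to -1.44). Of 19 tested Toll-like receptors and adaptors none was called and the median was 0.08.

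Of 26 tested receptors of growth factors and cytokines 4 were called lower, against 4.06% of all genes tested, while 17 had a higher mean and the median was 0.19. Ifngr2, the signalling chain of the interferon-gamma receptor, was at 15.7, 16.8, 13.04 and 15.1 CPM in the Tet2-/- libraries and 65.2, 72.6, 59.5 and 56.9 CPM in the WT libraries (log2 fold change -2.07 with SE 0.15, adjusted p = 7.79e-06). Il6ra, the ligand-binding chain for interleukin 6, was at 11.7 ± 4.601 against 60.8 ± 13.7 CPM (log2 fold change -2.37, adjusted p = 0.000417). Csf2ra, the ligand-binding chain for GM-CSF, was at 14.95, 15.8, 12.7 and 19.9 CPM in the Tet2-/- libraries and 40.3, 31.3, 42.7 and 66.5 CPM in the WT libraries (log2 fold change -1.51 with SE 0.24, adjusted p = 0.0023). Il17ra had 18.1 ± 6.7004 against 46.9 ± 14.8 CPM, with overlapping groups, and was not called without Tet2-/- library 2, 4 or 5 or WT library 2 or 3 (log2 fold changes of -1.36 to -1.24). The type I interferon receptor chain Ifnar2 fell by 0.47 (adjusted p = 0.0418). Csf1r and Csf3r, the receptors of M-CSF and G-CSF, had log2 fold changes of 0.49 and 0.29 (adjusted p = 0.114 and 0.408).

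Of 30 genes of the unfolded protein response 4 were called lower, against 4.06% of all genes tested. Xbp1, a transcription factor of the unfolded protein response, was at 20.3, 32.2, 12.1 and 15.98 CPM in the Tet2-/- libraries and 121, 156, 139.6 and 128 CPM in the WT libraries (log2 fold change -2.76 with SE 0.27, adjusted p = 6.68e-05). Dnajc3 and Creld2, both induced when folding is disturbed, had 65.6 ± 17.7 against 240.4 ± 24.8 CPM and 36.4 ± 6.35 against 109.96 ± 15.3 CPM. Ddit3, which encodes CHOP, had 14.7 ± 1.86 against 37.1 ± 5.37 CPM (log2 fold change -1.33). Of the 30 genes 23 had a lower mean (median -0.31). The mean level of the list was 6.57, 6.73, 6.61 and 6.61 in the Tet2-/- libraries and 6.94, 7.02, 7.13 and 7.12 in the WT libraries, with no overlap, whereas its summed level overlapped at 9755 to 10601 CPM in the Tet2-/- and 10277 to 12376 CPM in the WT libraries. Among 77 tested heat shock and chaperone genes 4 were called lower, Dnajc3, Hspa4 (52.6 ± 9.65 against 269 ± 63.8 CPM), Dnajc2 and Bag1, and the median was -0.05.

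The nuclear genes of mitochondria among the named decreases are given together here, a grouping made after the calls were seen, and the fixed lists of such genes were called about as often as all genes. Of 79 oxidative phosphorylation genes 3 were called lower (median -0.04), and of 78 mitochondrial ribosomal protein genes 4 (median -0.01), where 4.06% of all genes tested were. Iscu, the scaffold on which iron-sulfur clusters are built, was at 3.99, 3.49, 4.61 and 2.74 CPM in the Tet2-/- libraries and 93.8, 95.4, 66.4 and 71.2 CPM in the WT libraries (log2 fold change -4.45 with SE 0.22, adjusted p = 1.19e-06). C1qbp, a mitochondrial matrix protein needed for mitochondrial translation, was at 27.5, 31.4, 31.6 and 16.9 CPM in the Tet2-/- libraries and 474, 411, 381 and 299.9 CPM in the WT libraries (log2 fold change -3.87 with SE 0.22, adjusted p = 3.16e-06). Chchd10, of the intermembrane space, was at 1.78, 2.09, 2.08 and 1.95 CPM in the Tet2-/- libraries and 35.4, 37.7, 32.9 and 33.97 CPM in the WT libraries. For these 3 genes the groups were far apart. The mitoribosome genes Mrps30 and Mrps24 had 7.08 ± 2.06 against 100.3 ± 29.1 CPM and 4.59 ± 0.814 against 59.5 ± 12.3 CPM, and the assembly factor genes Sdhaf1 (complex II) and Ndufaf6 (complex I) 1.63 ± 1.25 against 25.6 ± 2.94 CPM and 2.17 ± 0.271 against 29.9 ± 6.23 CPM. Uqcrfs1, the Rieske iron-sulfur protein of complex III, had 48.1 ± 5.42 against 291 ± 48.8 CPM (log2 fold change -2.6 with SE 0.15, adjusted p = 3.16e-06). Cox5a and Cyc1, of complexes IV and III, had 129.9 ± 23.1 against 322 ± 65.4 CPM and 128 ± 29.1 against 261 ± 45.9 CPM. Cyc1 was not called without Tet2-/- library 2 or WT library 2, 3 or 5 (log2 fold changes of -0.99 to -0.90). None of the 13 genes of the mitochondrial genome was called (median 0.11). In glycolysis, the pyruvate dehydrogenase kinase genes Pdk1 and Pdk3 fell to 34.4 from 109.7 CPM and to 44.4 from 112 CPM, 2 called of 26 (median 0.01).

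In the lists of RNA and protein synthesis single genes were far lower while the medians lay near 0. Eif3f, a subunit of the initiation factor eIF3, was at 51.4, 78.04, 53.1 and 33.8 CPM in the Tet2-/- libraries and 722, 579, 330.1 and 409 CPM in the WT libraries (log2 fold change -3.24 with SE 0.30, adjusted p = 4.45e-05). Eif5, which triggers start codon recognition, was at 37.5, 46.3, 109.6 and 40.8 CPM in the Tet2-/- libraries and 319.6, 362, 307 and 182 CPM in the WT libraries, where Tet2-/- library 4 lay above the other 3 and below all WT libraries (log2 fold change -2.32 with SE 0.35, adjusted p = 0.00172). They were the 2 called of 63 translation factor genes, 37 of which had a higher mean (median 0.08). Srsf6, a splicing factor of the SR family, was at 109, 105, 87.9 and 73.7 CPM in the Tet2-/- libraries and 699.7, 706, 536 and 438 CPM in the WT libraries (log2 fold change -2.67 with SE 0.19, adjusted p = 7.47e-06), and Srsf4, Srsf11, Prpf38b, Lsm2 and Srsf9 were called lower as well, 6 of 85 splicing factor genes against 4.06% of all genes tested. In the same list Snrnp70, Snrpd3 and Prpf8 rose by 0.75, 0.62 and 0.56 (adjusted p = 0.00596, 0.0162 and 0.025), and the median was 0.00. Among 85 cytosolic ribosomal protein genes 50 had a higher mean, the median was 0.03 and 1 was called, Rpl34. Rpl34 had 59.2, 59.7, 63.6 and 62.7 CPM in the Tet2-/- libraries and 292, 51.9, 325 and 259 CPM in the WT libraries, so that WT library 3 lay below every Tet2-/- library, and it was not called without Tet2-/- library 2, 3, 4 or 5 or WT library 2 or 4 (log2 fold changes of -1.95 to -1.71). Of 46 mRNA decay genes Cnot7, Dis3 and Tob1 were called lower (median 0.11), and of 45 proteasome genes none was called (median 0.03).

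Of 75 DNA repair genes 5 were called lower, of 33 ubiquitin-conjugating enzymes 3 and of 30 p53 pathway genes 2, where 4.06% of all genes tested were called lower. Xpa, which verifies damage in nucleotide excision repair, was at 1.501, 2.61, 1.79 and 1.54 CPM in the Tet2-/- libraries and 21.9, 14.99, 18.7 and 12.2 CPM in the WT libraries (log2 fold change -3.17 with SE 0.29, adjusted p = 3.86e-05). Ung, which excises uracil, had 30.03 ± 6.496 against 90.7 ± 7.52 CPM, and Nbn, of the MRN complex at double-strand breaks, 17.99 ± 2.77 against 50.4 ± 10.3 CPM. H2afx, the histone phosphorylated at breaks, had 105 ± 38.8 against 298 ± 90.6 CPM, and the Fanconi gene Fance 3.36 ± 1.66 against 10.6 ± 4.26 CPM. Fance was not called without Tet2-/- library 3, 4 or 5 or WT library 2 or 3 (log2 fold changes of -1.68 to -1.45). Of the 75 repair genes 45 had a higher mean (median 0.09). Among the E2 ubiquitin-conjugating enzymes, Ube2j2 (8.68 ± 1.4003 against 42.1 ± 8.097 CPM), Ube2d1 (7.82 ± 0.877 against 35.5 ± 7.101 CPM) and Cdc34 (7.404 ± 1.19 against 16.3 ± 3.75 CPM) were called lower (median -0.13). Ube2d2a and Ube2j1 fell by 0.83 and 0.99, and Ube2c, which serves the anaphase-promoting complex, rose by 0.60. Rnf138, a ubiquitin ligase of break repair, and the E2 genes Ube2a and Ube2d3 had log2 fold changes of -0.36, -0.33 and -0.24, and none passed (adjusted p = 0.166, 0.403 and 0.342). Of the p53 pathway genes 19 had a lower mean (median -0.33). Plk3 and Perp were called lower at 1.25 against 6.74 CPM and 0.911 against 4.3999 CPM, low levels at which both calls were lost on leaving out most of the single libraries. Plk3 was not called without Tet2-/- library 2, 3, 4 or 5 or WT library 2, 3 or 4 (log2 fold changes of -2.53 to -1.73), nor Perp without Tet2-/- library 2, 3, 4 or 5 or WT library 3, 4 or 5 (log2 fold changes of -2.55 to -1.73).

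Of 13 DNA methylation enzymes 7 had a higher mean (median 0.09) and 1 was called lower, against 4.06% of all genes tested. Tdg, the glycosylase that removes the oxidized cytosines made by TET enzymes, was at 5.05, 5.79, 5.28 and 5.12 CPM in the Tet2-/- libraries and 14.95, 22.4, 13.8 and 9.204 CPM in the WT libraries (log2 fold change -1.5 with SE 0.27, adjusted p = 0.00539). Dnmt3b, a de novo DNA methyltransferase, fell by 0.89 (adjusted p = 0.035). Tet1 and Tet3 had log2 fold changes of 0.74 and 0.25, and did not pass (adjusted p = 0.0674 and 0.456).

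Endosome and lysosome genes were mixed. Lamp1, a major lysosomal membrane protein, was at 42.5, 55.4, 49.3 and 39.6 CPM in the Tet2-/- libraries and 473, 302, 127 and 84.8 CPM in the WT libraries, with wide spread in the WT group (log2 fold change -2.4 with SE 0.45, adjusted p = 0.00738). Mcoln1, the lysosomal calcium channel, had 7.603 ± 1.58 against 36.97 ± 13.2 CPM and the protease gene Ctsh 11.3 ± 3.22 against 28.5 ± 3.77 CPM. They were among the 4 genes called lower in a list of 34, against 4.06% of all genes tested, with a median of 0.02. Map1lc3a, an LC3 protein of autophagosomes, was at 0.7202, 1.503, 0.786 and 1.05 CPM in the Tet2-/- libraries and 30.9, 28.3, 14.1 and 12.8 CPM in the WT libraries, and the Golgi genes Yipf4 and Sys1 were at 5.64 ± 1.81 against 80.96 ± 19.8 CPM and 5.097 ± 1.09 against 66.5 ± 23.4 CPM. Of 51 Rab GTPase genes 4 were called lower, against 4.06% of all genes tested (Rab6a, Rab35, Rab24 and Rab5a; median 0.09). Rab35 was not called without Tet2-/- library 2, 3 or 5 or WT library 2 or 3 (log2 fold changes of -1.7 to -1.17). The secreted factor gene Nenf had one of the largest decreases, at 0.507, 0.726, 0.723 and 0.966 CPM in the Tet2-/- libraries and 18.7, 23.6, 20.7 and 17.5 CPM in the WT libraries (log2 fold change -4.74 with SE 0.27, adjusted p = 3.16e-06), and other large decreases were those of Zfp444 (1.84 against 28.7 CPM) and the Mediator subunit gene Med30 (3.09 against 46.5 CPM).

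The following lists held between 0 and 2 genes called lower each, where 4.06% of all genes tested were called lower. Srm, the spermidine synthase gene and a MYC target, fell to 76.5 ± 18.8 from 428 ± 122.5 CPM, and Mxd1, a MAX partner, was also called lower, 2 of 25 MYC network genes (median 0.17). Insig1, a brake on sterol synthesis, was the 1 called of 23 cholesterol synthesis genes (10.7 ± 1.34 against 37.4 ± 8.403 CPM), and Fech, the last enzyme of heme synthesis, the 1 of 25 heme and iron genes (24.8 ± 6.72 against 55.6 ± 14.7 CPM). Of 64 tested histone genes only Hist2h3c2 was called (1.16 ± 0.714 against 13.6 ± 5.99 CPM). None of 16 tested BCL2 family genes was called, though the survival gene Bcl2 rose by 0.65 (adjusted p = 0.0463). None of 23 antigen presentation genes was called either (median 0.20).

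**Figure D4:**
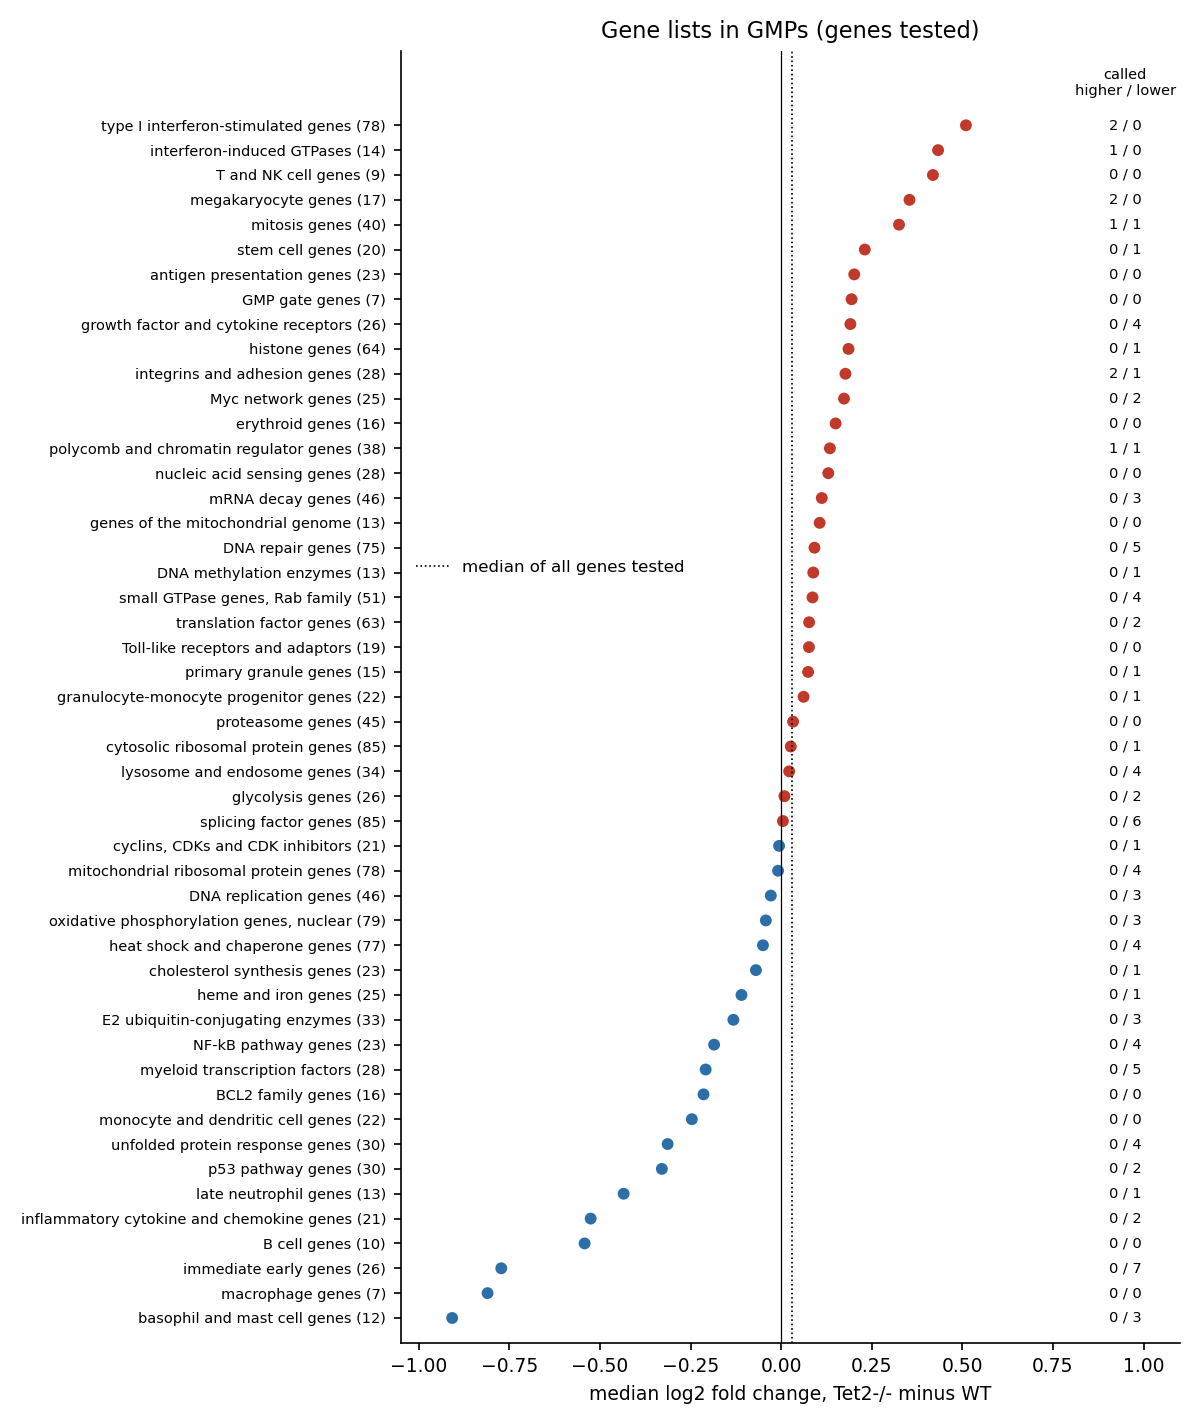
Median log2 fold change (Tet2-/- minus WT, horizontal axis) of each gene list with at least 5 genes tested, with the number tested in parentheses and the number called higher and lower at the right. Interferon-stimulated genes are highest at 0.51 and basophil and mast cell genes lowest at -0.91; the dotted line is the median of all genes tested, 0.03.

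Markers of other cells in the marrow were measured beside these groups. In bulk RNA, fewer cells of a type and less RNA per cell cannot be told apart. Of 16 basophil and mast cell genes 12 were tested, 8 had a lower mean and 3 were called lower, against 4.06% of all genes tested, with a median of -0.91. These were Il6ra, the IgE receptor chain gene Ms4a2 (2.97 ± 1.18 against 11.6 ± 6.25 CPM) and the transcription factor gene Gata2 (16.6 ± 7.77 against 36.4 ± 9.17 CPM). Ms4a2 was not called without Tet2-/- library 2, 4 or 5 or WT library 3 or 4 (log2 fold changes of -2.04 to -1.61), nor Gata2 without Tet2-/- library 2, 3 or 5 or WT library 2, 3, 4 or 5 (log2 fold changes of -1.24 to -1.01). The summed level of the list was 503 to 659 CPM in the Tet2-/- and 558 to 869 CPM in the WT libraries, the ranges overlapped, and the mast cell tryptase genes Tpsab1 and Tpsb2 were at 0 in all 8 libraries. Late neutrophil genes summed to 53.5 to 96.03 CPM in the Tet2-/- and 106 to 144 CPM in the WT libraries, with no overlap, a median of -0.43 over 13 tested of 20, and Ltf, Mmp9 and Itgb2l at 0 throughout. Cxcl2 was their 1 called member. Monocyte and dendritic cell genes (22 tested, 14 lower, median -0.25) summed to 2282 to 3196 CPM in the Tet2-/- and 2653 to 3252 CPM in the WT libraries, and F13a1 alone passed, falling by 0.52 (adjusted p = 0.0426). Macrophage genes summed to 24.6 to 39.6 CPM in the Tet2-/- and 35.1 to 55.3 CPM in the WT libraries, with a median of -0.81 and Cd5l, Marco and Timd4 at 0. B cell genes (10 tested, 9 lower, median -0.54, Vpreb2 at 0) summed to 128 to 148 CPM in the Tet2-/- and 153 to 197 CPM in the WT libraries, with no overlap. Their 1 member past the threshold, Ighm, fell by 0.58 (adjusted p = 0.0165). T and NK cell genes (9 tested, all with a higher mean, none called, Il2rb at 0) summed to 8.95 to 14.7 CPM in the Tet2-/- and 6.22 to 13.1 CPM in the WT libraries. Erythroid genes (16 tested, 10 higher, none called) summed to 188 to 251 CPM in the Tet2-/- and 132 to 233 CPM in the WT libraries. Eosinophil genes (3 tested, none called, Ear1 and Ear6 at 0) summed to 31.03 to 44.8 CPM in the Tet2-/- and 23.7 to 45.8 CPM in the WT libraries. None of the 7 macrophage genes tested was called. Among 20 tested stem cell genes 15 had a higher mean (median 0.23), Hoxa9 fell by 0.70 (adjusted p = 0.0222) and Gata2 was the 1 call. Primary granule genes summed to 41881 to 50136 CPM in the Tet2-/- and 39711 to 49612 CPM in the WT libraries, with a median of 0.07. The part of admixed cells in the lists above was not tested. The Y-linked genes Ddx3y, Eif2s3y and Uty were at 0 in all 8 libraries and Kdm5d had at most 2 counts, and the X-inactivation gene Xist rose by 0.69 on the log2 scale (adjusted p = 0.00519).

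The genes called lower shared features that the test had not used. Among protein-coding genes, the GC content of the first 200 transcript bases had a median of 72.5% in 613 genes called lower, against 62.5% in 11581 not called and 61.0% in 33 called higher. Over the whole transcript the medians were 51.4 and 50.1%, and over the last 200 bases 40.5% in both. The share called lower was 1.27 to 2.03% in each bin below 65% GC, 4.57% from 65 to 70%, 12.7% from 70 to 75%, 16.5% from 75 to 80% and 4.97% above 80%. The median transcript length was 2519 bases for genes called lower, 2950 for those not called and 4310 for those called higher. With a correction for this 5′ GC content, an alternative chosen after seeing the data, 628 genes were called lower, 615 of them among the 672, and 54 higher, 45 of them among the 51. The correction takes off only a smooth trend in each library, and the median log2 fold change per bin was -0.17 to 0.14. It could therefore move most single genes little, and the calls that remained are no test of the GC pattern.

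The genes called lower were also low in Tet2-/- cells of the 2 neighbouring myeloid progenitors. Common myeloid progenitors (CMPs) give rise to GMPs and to megakaryocyte-erythroid progenitors (MEPs). Over the 672 genes the median log2(CPM + 0.5) was 3.38 in Tet2-/- against 5.195 in WT GMPs, 3.37 against 4.76 in CMPs and 3.27 against 4.64 in MEPs. It was 3.39 against 3.41 in LT-HSCs, 3.24 against 3.45 in ST-HSCs and 3.93 against 4.23 in common lymphoid progenitors (CLPs). In CMPs, 643 of the 672 had a lower mean in Tet2-/- cells and 429 were at least 2-fold lower (63.8%, where 13.1% of all genes were). In MEPs these numbers were 627 and 393 (58.5% against 13.7%). Spi1 was at 12.3 against 103 CPM in CMPs and 10.9 against 11.7 CPM in LT-HSCs. Of the 51 genes called higher, 42 had a higher mean in CMPs and 15 were at least 2-fold higher there (29.4%, where 10.4% of all genes were). In MEPs 37 had a higher mean and 19 were at least 2-fold higher (37.3% against 8.48%). The libraries of each number are labelled alike across populations, so that these groups may share mice. Deviations from the group means correlated best with the CMP library of the same number for 7 of 8 GMP libraries (same-number r of 0.0386 to 0.162) and with the MEP library of the same number for 5 of 8.

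**Figure D5:**
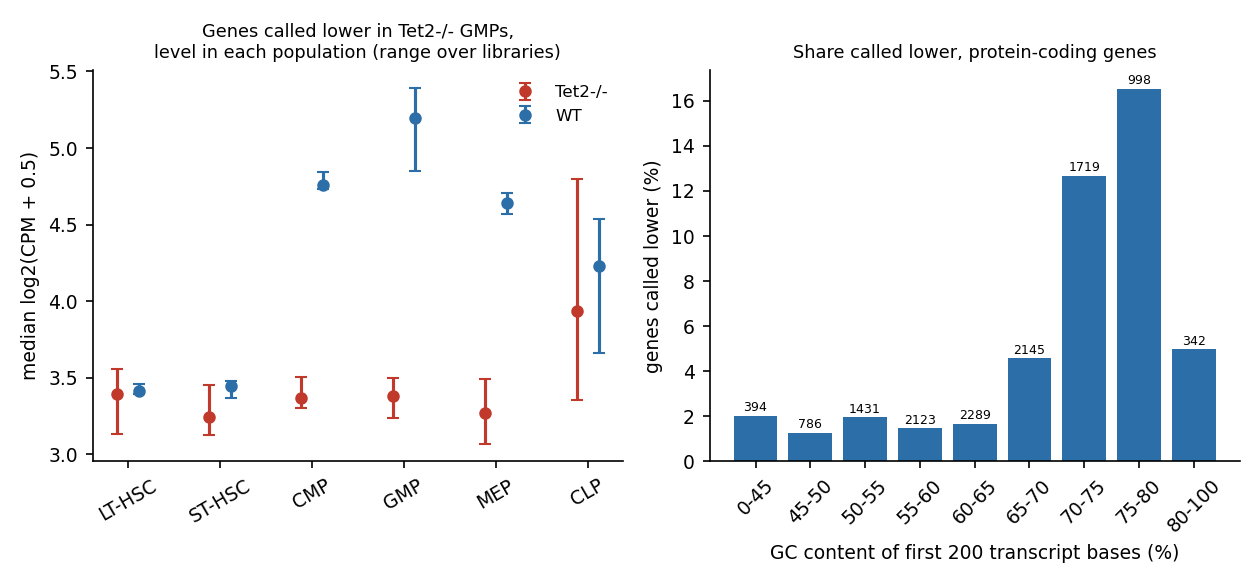
Left, median log2(CPM + 0.5) of the 672 genes called lower, by population and genotype, as the median over libraries with the lowest and highest library as bars; the genotypes are apart in CMPs, GMPs and MEPs and overlap in the other 3 populations. Right, percentage of protein-coding genes called lower by GC content of the first 200 transcript bases, with the number tested above each bar; the share is highest at 75 to 80%.

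Whether the effect of Tet2 loss differed between GMPs and the neighbouring progenitors was tested as an interaction over 24 libraries and 19210 genes. Against CMPs the GMP effect was more positive for 41 genes (0.213%) and more negative for 69 (0.359%). Against MEPs the numbers were 176 (0.916%) and 93 (0.484%). These counts depended on the fit. Against CMPs they were 222 and 214 by DESeq2, 22 and 40 without a filter on low counts, and 23 and 32 without WT library 3, the smallest total on leaving out single libraries. Omission of Tet2-/- library 5 gave 23 and 37, and that of WT library 2 gave 28 and 41. Without Tet2-/- library 4 and without WT library 4 the more positive count was 24 in each. Against MEPs they were 457 and 276 by DESeq2, 107 and 63 without Tet2-/- library 5, 111 and 59 without WT library 3, and 117 more positive without Tet2-/- library 4. The fit took no account of shared mice. With genotype and replicate number together as a block, 28 of the 41 and 59 of the 69 were called against CMPs. Against MEPs, 155 of the 176 and 74 of the 93 were. This block joins libraries of the same genotype and number across populations. It is a block by mouse only if these libraries share a mouse, which the labels do not state. Of the 672 genes called lower in GMPs, 49 had a more negative effect than in CMPs and 81 than in MEPs, and 3 and 18 a more positive one. The 672 were selected by low values in the same GMP libraries. That selection by itself favours more negative differences, so the balance of these counts is not a result. Tnfaip3 was among the more negative, with 28.2 against 27.7 CPM in CMPs (difference of log2 fold changes -2.76, adjusted p = 0.0394). C1qbp and Yipf4 fell more in GMPs than in CMPs, by 1.23 and 1.33 (adjusted p = 0.0394 and 0.0394). Zfp710, higher in Tet2-/- GMPs, had 6.15 against 10.5 CPM in CMPs (difference 3.79, adjusted p = 0.00443). These CMP levels were scaled over the 24 libraries. Scaled over all 46 libraries, as the Nnt and Adnp levels in other populations were, they were 5.86 against 10.0 CPM. Levels from different scalings are therefore not directly comparable. Slc40a1, the iron exporter ferroportin, had 13.4 against 22.7 CPM in GMPs and 49.4 against 10.5 CPM in CMPs (difference -2.998, adjusted p = 0.00176). Apoe, the apolipoprotein E gene, had 40.8 against 52.2 CPM in GMPs, 24.7 against 292 CPM in CMPs and 9.62 against 242 CPM in MEPs (differences 3.2 and 4.3). Plbd2 and Rfng, a Notch-modifying glycosyltransferase gene, had 7.77 against 60.96 CPM and 4.09 against 33.1 CPM in GMPs, and 17.4 against 18.5 CPM and 10.9 against 12.1 CPM in MEPs, with adjusted p = 0.000151 and 0.00173.

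Some of the values above have a limit from the annotation. Of the 672 genes called lower 240 overlap another annotated gene, of the 51 called higher 17, and of all 16563 tested 5817. The sources used here do not give whether counting used strand, so reads of overlapping genes cannot be told apart. Among the genes of the naming rule this holds for Tet2, Cd34, Fcgr2b, Cgas, Irf3, Tapbp, Adnp, Zfp710, Selp, Itga1, Cdc25b, Dusp1, Jun, Chchd10, Sdhaf1, Mrps30, Mrps24, Cox5a, Sys1, Plbd2, Tdg, Xpa, Fance, H2afx, Chaf1a, Il6ra, Ddit3, Srsf4, Eif5, Ccna2, Lamp1, Cnot7, Dis3, Plk3, Rab6a, Rab24, Rab5a, Bcl2, F13a1, Xist, Ube2d3 and both Nnt genes. For single genes whose groups do not overlap, the exact permutation test of the 8 libraries gives 0.0286, the smallest two-sided value that 4 against 4 libraries allow.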

How the data were processed

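RNA of sorted GMPs was measured in 4 Tet2-/- and 4 WT libraries. The authors deposited a table of raw gene counts per library. The submitters' processing notes name Trim Galore 0.6.7, HISAT2, DESeq2 and the builds mm10 and mm9. The counting program and its use of strand are not given in the sources used here. From these counts, genes passing filterByExpr were tested with edgeR 4.0.16 (R 4.3.3, limma 3.58.1; TMM, quasi-likelihood test of the 8 GMP libraries, Benjamini-Hochberg adjustment over all 16563 genes). Fold changes used a prior count of 2. Calls required an adjusted p below 0.05 and at least a 2-fold change. Differences between populations were tested as interactions over 24 GMP, CMP and MEP libraries. Members and gene lists were chosen with earlier results of these data known.

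Genes named by rule were Tet2, the gate genes and genes the study names, up to 15 called in each direction by size (at least 20 CPM, groups apart), up to 5 called members of each list or else the 2 of smallest p, up to 5 in each direction of each difference, and the Rps3a and sex-linked genes. Other genes are named from the lists after their values were seen, and some items are not reported here. On simulated counts for the GMP comparison over 16563 genes, edgeR found 163 of 200 genes that had been altered 4-fold and made 4 false calls, where DESeq2 1.42.0 found 181 and made 41. For the GMP effect minus the CMP effect over 19210 genes, edgeR found 111 of 200 and made 5 false calls. The alternatives were DESeq2, RLE scaling, no filter, other thresholds, omission of mitochondrial or sex-linked genes, a fit of all 46 libraries, a replicate block, omission of single libraries and a correction for GC content. Figures were drawn in Python 3.11.15 with matplotlib 3.10.9.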

Additional observations from a re-analysis of the deposited data

Results flagged for a closer look

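In groups of 4 libraries, 30 of 414 groups held a library that stood apart from the other 3 by Dixon's criterion, where chance gives about 1 in 20. Among interferon genes this was Ifi44l in Tet2-/- library 3 (35.2 CPM, others 13.7 to 16.4). In the same library Cipc was low (15.4 CPM, others 40.3 to 45.3), Ly6a high (5.13 CPM, others 0.609 to 1.37) and Rab24 high (6.57 CPM). Tet2-/- library 4 was high for Gata2 (28.2 CPM, others 11.5 to 14.3), Eif5 (109.6 CPM) and Apoe (65.7 CPM), and low for F13a1 (259 CPM, others 357 to 367).

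Tet2-/- library 2 was low for Fcgr2b (103 CPM) and high for Rps3a3 (459 CPM) and Rps3a1 (1527 CPM). Tet2-/- library 5 was low for Cnot7 (25.8 CPM, others 41.5 to 42.3). WT library 4 was high for the 3 Rps3a copies Rps3a3 (26.9 CPM), Rps3a2 (58.1 CPM) and Gm5586 (8.97 CPM), and low for Cdc34 (10.7 CPM) and Cyc1 (193 CPM). WT library 5 was low for Rnf138 (85.1 CPM, others 111 to 115) and Med30 (27.5 CPM), and high for the eosinophil lectin gene Siglecf (28.5 CPM, others 18.2 to 18.8) and for Cd4 (0.387 CPM, others 0). WT library 2 was high for Gata1 (7.08 CPM) and had the fewest genes with a count, 19675.

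Of the lists, the mean log2(CPM + 1) stood apart for mitosis genes in Tet2-/- library 5 (6.97), for DNA methylation enzymes (5.42) and B cell genes (2.24) in Tet2-/- library 3, and for genes of the mitochondrial genome in Tet2-/- library 2 (10.11). It stood apart in WT library 4 for NF-kB pathway genes (4.32), antigen presentation genes (4.93) and lysosome genes (6.12).

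The effect of Tet2 loss differed between GMPs and CMPs by the interaction test, with log2 differences of 3.79 for Zfp710, 3.20 for Apoe, 2.14 for Emc6, 2.13 for Pop5, 2.01 for Sdf2l1, -2.76 for Tnfaip3, -3.0 for Slc40a1, -3.0 for Mt2, -4.09 for Mst1r and -6.0 for Pfas. Between GMPs and MEPs the differences were 4.43 for Tpgs1, 4.30 for Apoe, 4.28 for Cela1, 3.67 for Col5a1, 3.36 for H2afj, -2.80 for Gpc1, -2.85 for Rfng, -2.88 for Plbd2, -4.84 for Pcp4l1 and -4.89 for Lrrc8a. Some of these sizes rest on a population at or near 0 and depend on the prior count, so that they give no bound. Pcp4l1 and Gpc1 had 0 CPM in WT MEPs and 0.736 and 0.189 CPM in Tet2-/- MEPs. In Tet2-/- against WT GMPs, Mst1r had 0.0529 against 0.456 CPM, Mt2 0.42 against 0.532 CPM and Col5a1 0.366 against 0.0207 CPM.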

How the results depend on the processing

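For single genes, 2368 of 2616 values under the alternatives kept their direction and their side of the threshold, 229 lost the call (70 of them in the 46-library fit), 6 gained it and 13 reversed. Of 830 list medians 764 moved by less than the spread between libraries. The median of the interferon-stimulated genes ranged from 0.36 to 0.55 over the alternatives.

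The count of genes called in GMPs, 723, was 219 in the 46-library fit (5 higher, 214 lower). It was 1169 at an unadjusted p below 0.05 and at least 2-fold (227 higher). At an adjusted p below 0.05 and any fold it was 1086 (177 higher). DESeq2 called 179 higher. With single libraries left out it was 608 to 734, with 39 to 63 higher and 560 to 679 lower, of which 27 to 36 and 550 to 618 were among the 51 and 672. The count of lists with a called gene, 38, was 17 in the 46-library fit and 34 to 40 with single libraries left out. The Tet2 log2 fold change was 0.17 to 0.39 with single libraries left out. The GMP effect minus the CMP effect had 436 genes by DESeq2 (222 higher, 214 lower), 62 without a filter (22 and 40) and 55 to 110 with single libraries left out (23 to 37 higher, 32 to 75 lower). The GMP effect minus the MEP effect had 733 genes by DESeq2 (457 higher, 276 lower) and 170 to 244 with single libraries left out (107 to 155 higher, 59 to 103 lower). The cause was not tested.

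With genotype and replicate number together as a block, the differences gave 126 genes against CMPs (54 and 72) and 299 against MEPs (212 and 87). In the GMP comparison the block was the replicate number alone, which joins Tet2-/- and WT libraries. It gave 34 genes called higher and 624 lower (658 in all), 27 and 601 of them shared with the calls without it. Tet2 was at 0.29, and 35 lists held a called gene. The numbers did not pair the GMP libraries, since deviations of same-numbered Tet2-/- and WT libraries correlated at -0.03 to 0.08. Under the block on the number alone Ly6a reversed to -0.16 and Gata1 to -0.27.

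With single libraries left out, the log2 fold changes that reversed ranged from -0.017 to 0.25 for Tmem173 (reversed without WT library 3), from -0.020 to 0.18 for Tbk1 (Tet2-/- library 5), from -0.0025 to 0.26 for Mavs (Tet2-/- library 3), from -0.12 to 0.012 for Fcgr2b (Tet2-/- library 2), from -1.23 to 0.070 for Il7r (WT library 3), from -0.78 to 0.497 for Ly6a (Tet2-/- library 3 or WT library 5, -0.0045), from -0.60 to 0.45 for Gata1 (Tet2-/- library 4 or WT library 3, -0.011), from -0.087 to 0.501 for Tpgs1 (Tet2-/- library 4) and from -0.36 to 0.066 for Pcp4l1 (Tet2-/- library 2). None of these genes was called in GMPs. The cause of these reversals was not tested.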
